A study of Sus scrofa with 9 samples.

Results

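The genes TRAF6, IKBKG and NFKBIA encode components that carry a signal from the receptor of ectodysplasin (EDA) to the transcription factor NF-kB. They were followed in developing molars of the miniature pig. Members were taken as every probe set of the Affymetrix Porcine Genome Array whose only gene symbol was one of the 3. This gave 5 of 23999 probe sets tested, or 3 of the 6765 genes that the array names by a single symbol. TRAF6 and IKBKG had 2 probe sets each and NFKBIA had 1. Additional molar germs with attached dental lamina had been dissected from the mandibles of Wuzhishan miniature pigs, with no treatment, at embryonic days 50, 60 and 70 (E50, E60 and E70), and each stage was measured on 3 arrays. By the labels the first molar (M1) was a cap at E50, with no second molar (M2) yet. It was a bell at E60, the stage tied to the start of M2, and a late bell at E70. The methods describe RNA from germs pooled by stage and collected within a litter, whereas the labels call the arrays biological replicates. All p-values therefore measured only the spread between these arrays, which may be technical. Because whole germs were measured, fewer cells of a type and less RNA per cell cannot be told apart.

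In ectodermal organs the ligand EDA binds its receptor EDAR, the adaptor EDARADD recruits TRAF6, and TRAF6, a ubiquitin ligase, activates the kinase TAK1 (MAP3K7). TAK1 activates the IkB kinase complex, whose regulatory subunit NEMO is the product of IKBKG. The complex marks the inhibitor IkB-alpha, the product of NFKBIA, for destruction, and the NF-kB dimers it had held in the cytoplasm enter the nucleus. NFKBIA is itself switched on by NF-kB, which restores the inhibitor. Loss of this pathway is known for missing and misshapen teeth, and mutations of IKBKG and NFKBIA can cause ectodermal dysplasia with immune deficiency.

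The E50 arrays stood apart from the others. The background, taken as the 95th percentile of 23 control probe sets on each array, ranged from 77.7 to 379 signal units at E50, from 37.9 to 54.4 at E60 and from 38.1 to 55.8 at E70. The ratio of the 3′ to the 5′ probe set of the control gene EF1A, read as a measure of RNA and labelling quality, was 49.3 to 55.8 at E50 and 1.35 to 1.56 at the later stages. Spiked hybridisation controls averaged 58864 to 69063 at E50 and 3077 to 4199 later. Arrays of E50 correlated with each other at r = 0.605 to 0.683, against 0.901 to 0.921 within the later stages. The part of these differences in the values below was not tested, and every comparison with E50 carries them. Signal is the MAS 5.0 probe set intensity, scaled by the authors to a common mean, and changes are differences in mean log2 signal.

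TRAF6 was near or below background until E70. Its brighter probe set read 11.9, 8.82 and 12.9 at E50, 30.5, 27.2 and 22.3 at E60, and 59.6, 92.3 and 51.4 at E70. The 3 stages did not overlap, but all 6 arrays of E50 and E60 lay below their own background, and the 3 arrays of E70 stood at 1.07, 2.42 and 1.07 times theirs. Limma's fit across all probe sets gave fitted log2 differences of 1.25 between E60 and E50 (SE 0.30, adjusted p = 0.0294) and 2.57 between E70 and E50 (SE 0.30, adjusted p = 0.00224). Both rest on values under background at E50, where the background had a geometric mean of 194 against a TRAF6 signal of 65.7 at E70, so neither is read as a rise or given as a fold. Between E60 and E70 the difference was 1.31 (SE 0.30, adjusted p = 0.207), which did not pass, with a signal at E70 at least 1.38-fold higher than the E60 background. The E60 minus E50 difference was not called with a floor of 16 (0.72, adjusted p = 0.103) or without E50 replicate 2 or any single E60 array (adjusted p = 0.0510 to 0.106), and was 2.03 with median centring (adjusted p = 0.00430).

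The dimmer TRAF6 probe set read 7.97, 21.2 and 15.1 at E50, 0.821, 0.989 and 15.2 at E60, and 12.04, 25.8 and 16.5 at E70. None of the 9 arrays exceeded background and the stages overlapped in each comparison. Its changes were -2.46 (SE 1.05, adjusted p = 0.143) from E50 to E60, 2.80 (adjusted p = 0.546) from E60 to E70 and 0.33 (adjusted p = 0.847) from E50 to E70.

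IKBKG was highest at E50 with its brighter probe set, while its dimmer one was below background there. The brighter probe set read 333, 518 and 399 at E50, 153, 135 and 190 at E60, and 199.8, 187 and 245 at E70. All E50 arrays lay above all later arrays, and E60 and E70 overlapped. The signal exceeded background on all 9 arrays, but at E50 by 1.34, 6.66 and 1.05 times, and at the later stages by 2.56 to 5.10 times. The signal fell 2.60-fold from E50 to E60, a log2 change of -1.38 (SE 0.27, adjusted p = 0.0140), and was 1.96-fold lower at E70 than at E50, a log2 change of -0.97 (SE 0.27, adjusted p = 0.0428). From E60 to E70 it differed by 0.41 (SE 0.27, adjusted p = 0.887), with a 95% interval of -0.22 to 1.03. Both calls were lost when each array was centred on its median (changes of -0.60, adjusted p = 0.184, and -0.26, adjusted p = 0.553) and with quantile normalization. The first was also lost without E60 replicate 1 (adjusted p = 0.0589) or 2 (0.0593), and the second without any array but E50 replicates 1 and 3 (up to 0.126).

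The dimmer IKBKG probe set read 4.90, 43.3 and 62.7 at E50, 125, 118 and 100.2 at E60, and 159, 153 and 177 at E70. Here the E50 arrays, all below background, were the lowest, and the 3 stages did not overlap. Its changes were 2.27 (SE 0.86, adjusted p = 0.110) from E50 to E60, 0.51 (SE 0.86, adjusted p = 1.00) from E60 to E70 and 2.78 (SE 0.86, adjusted p = 0.0626) from E50 to E70. The differences from E50 rest on values under background, and the later signals, with geometric means of 114 and 163, did not exceed the E50 background of 194, so this probe set shows no direction from E50. Its E60 minus E50 value was called with median centring (3.04, adjusted p = 0.0317), a floor of 16 (1.70, 0.0405), 32 added before log2 (1.19, 0.0403), without E50 replicate 1, which read 4.90 (1.13, 0.0234), and without E50 replicate 3 (2.97, 0.0442). Between E60 and E70, where both probe sets exceeded background, the brighter one changed by -0.11 relative to the dimmer one on the log2 scale, with p = 0.9 in an exact two-sided permutation test whose smallest p for 3 against 3 arrays is 0.1, and 0.9 after adjustment over the 8 such tests made for IKBKG and TRAF6.

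NFKBIA stood above background on all arrays. Its single probe set read 775, 1077 and 985 at E50, 577, 599.8 and 507 at E60, and 554, 669.9 and 730 at E70, or 946 ± 155, 561 ± 48.1 and 651 ± 89.3 (mean ± SD, n = 3). All E50 arrays lay above all E60 and E70 arrays, and E60 and E70 overlapped. The log2 difference between E60 and E50 was -0.74 (SE 0.23, adjusted p = 0.0658, 95% interval -1.29 to -0.20), a signal 1.67-fold lower at E60. The difference between E70 and E60 was 0.21 (SE 0.23, adjusted p = 1.00, interval -0.34 to 0.76), and that between E70 and E50 was -0.53 (adjusted p = 0.154, interval -1.08 to 0.01). None of these passed the threshold of 0.05. Median centring moved the E60 minus E50 value to 0.032 and the E70 minus E50 value to 0.18, so that the sign of both differences rested on the scaling.

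**Figure D1:**
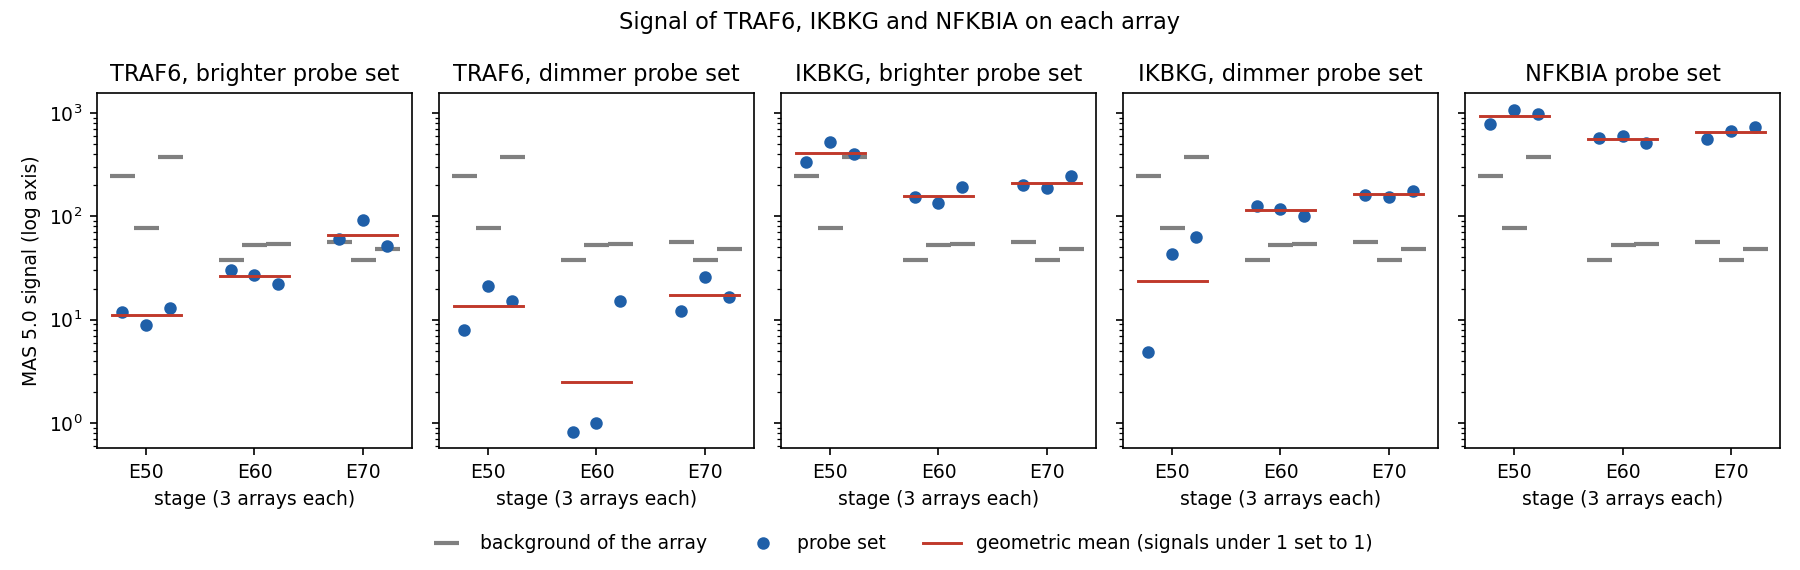
MAS 5.0 signal of the 5 probe sets (log axis) on the 3 arrays of each stage, with the background of each array as a grey dash and the geometric mean of the stage as a red line. NFKBIA and the brighter IKBKG probe set lie above background on all 9 arrays and are highest at E50, the dimmer IKBKG probe set is lowest at E50, and TRAF6 exceeds background only at E70 and only with its brighter probe set.

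Of the 5 probe sets, 2 were called between E50 and E60, the brighter ones of TRAF6 (under background) and IKBKG, beside 18.5% of all probe sets. Between E50 and E70 the same count of 2 was called, beside 18.8% of all. Between E60 and E70 limma called 0 of 5 (2 of 5 at an unadjusted p under 0.05), beside 0.421% of all. Fitted changes of the 5 from E60 to E70 ranged from 0.21 to 2.80, beside a median of 0.055 over all probe sets. The highest was that of the dimmer TRAF6 probe set, below background on every array. The moderated F over the 3 stages called 2 of 5, the brighter probe sets of TRAF6 (F = 35.6, adjusted p = 0.00518, under background at E50 and E60) and IKBKG (F = 14.1, adjusted p = 0.0254), beside 17.7% of all. Of 17 alternative fits, the F call of IKBKG was kept in 9 (adjusted p up to 0.342), and in 5 of the 9 fits without 1 array. That of TRAF6 was kept in 16 of 17 and lost with an intensity trend in the prior (0.105). The difference between the steps, E70 minus E60 less E60 minus E50, was called for 0 of 5 by limma (3 of 5 at an unadjusted p under 0.05), beside 1.99% of all. It was 1.78 for the brighter IKBKG probe set (SE 0.46, adjusted p = 0.0919) and 0.95 for NFKBIA (adjusted p = 0.252), which were lowest at E60, and 0.06 for the brighter TRAF6 probe set (adjusted p = 0.967).

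**Figure D2:**
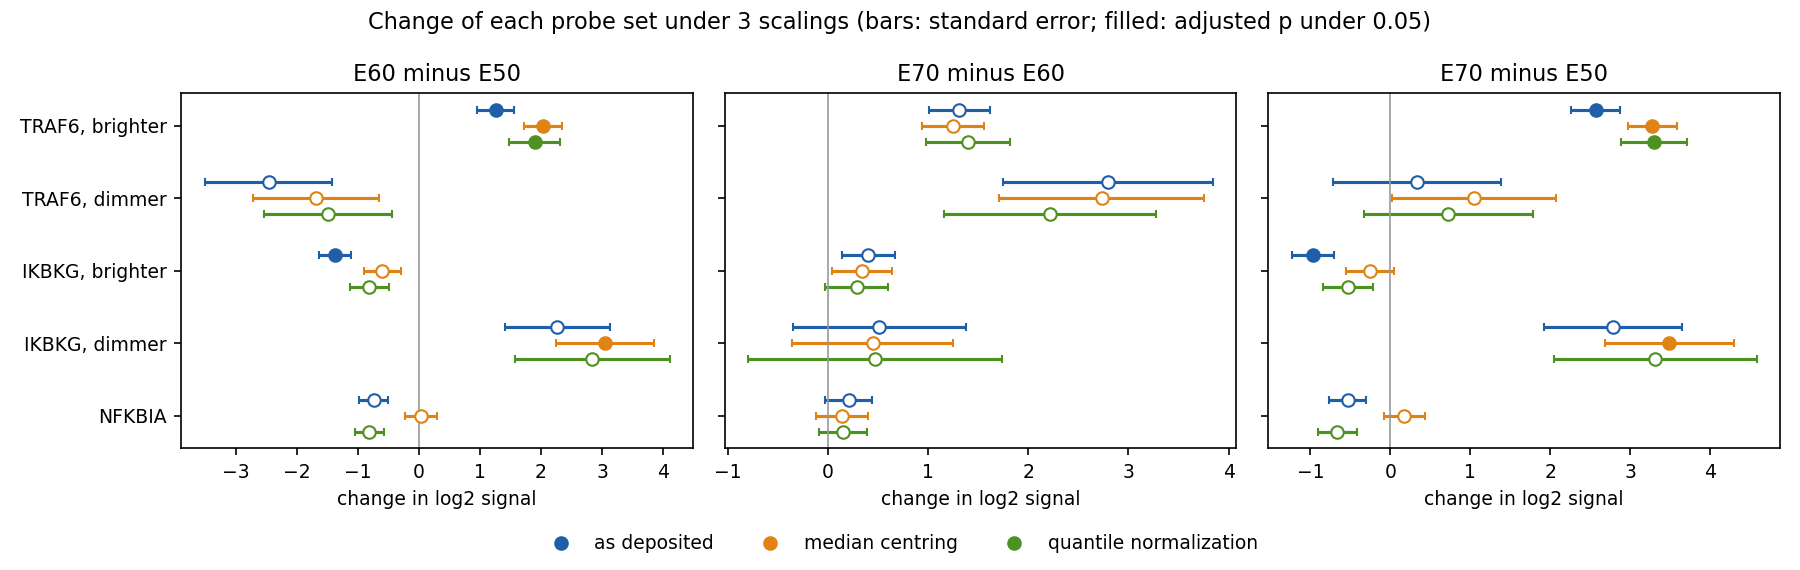
Change in log2 signal of each probe set in the 3 comparisons, with its standard error as a bar, for the signals as deposited, after median centring and after quantile normalization. Filled points have an adjusted p under 0.05 in limma. With median centring the NFKBIA changes from E50 lie at 0.032 and 0.18, and the brighter IKBKG probe set is called under neither other scaling.

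The spread between arrays at E50 was narrower for most member probe sets than the median over all probe sets, which were not matched by intensity. Both TRAF6 probe sets lay below background there, so their spread is not read as that of TRAF6 RNA. The SD of log2 signal there was 0.245 for NFKBIA, 0.320 and 0.289 for the brighter probe sets of IKBKG and TRAF6, 0.716 for the dimmer TRAF6 probe set and 1.99 for the dimmer IKBKG probe set, against a median of 1.03 over all probe sets. At E60 and E70 that median was 0.264 and 0.316, where NFKBIA had SDs of 0.126 and 0.203 and the brighter IKBKG probe set 0.250 and 0.203. The brighter TRAF6 probe set had 0.228 and 0.439 and the dimmer one 2.27 and 0.551, above both medians, and the dimmer IKBKG probe set had 0.167 and 0.107.

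The other genes of the route from receptor to NF-kB were described from lists of 76 genes, of which 36 were measured, or 33 without the members. EDA, EDAR, EDARADD, TAB2, CHUK, IKBKB, RELA, REL and NFKB2 had no probe set with a single symbol and were not analysed here. Between E50 and E60, 3 of the 33 genes were called higher, 6 were called lower and 24 did not pass. This stood beside 7.20% of all genes that rose and 13.7% that fell. The median change of the 33 was -0.38, against -0.18 over all genes. Between E50 and E70, 3 were called higher and 5 lower, beside 7.33% and 14.3% of all genes, with a median of -0.20 against -0.11. SHARPIN was among the 3 called higher in both comparisons. It lay below background at E50 and is not read as a rise. Between E60 and E70 limma called 0 of 33 (1 at an unadjusted p under 0.05), beside 0.118% of all genes that rose and 0.606% that fell. The split by direction rested on the scaling: with median centring 10 of the 33 rose and 0 fell from E50 to E60, and 7 rose and 0 fell from E50 to E70.

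Among receptors that use TRAF proteins, both tumour necrosis factor receptors fell. TNFRSF1A ranged from 1184 to 1990 at E50, 723 to 740 at E60, and then 550 to 616 at E70, a fall of 2.02-fold by E60 (adjusted p = 0.0303) and 2.50-fold by E70 (adjusted p = 0.0118). TNFRSF1B ranged from 559 to 701 at E50, 326 to 356 at E60, and then 252 to 360 at E70, a fall of 1.89-fold by E60 (adjusted p = 0.0331) and 2.18-fold by E70 (adjusted p = 0.0160). The arrays of E50 lay above all later ones for both receptors, and neither was called after median centring. Their calls at E60 were also lost without any single E60 array, E70 replicate 3 and, for TNFRSF1A, the other E70 arrays (adjusted p = 0.0520 to 0.113). Those at E70 were lost without E70 replicate 3 and, for TNFRSF1B, E70 replicate 2 (0.0502 to 0.0617). MAP3K7, the kinase TAK1 that TRAF6 activates, ranged from 162 to 339 at E50, 461 to 527 at E60, and then 255 to 477 at E70, with changes of 0.88 from E50 to E60 (adjusted p = 0.142), -0.48 from E60 to E70 (adjusted p = 0.958) and 0.40 from E50 to E70 (adjusted p = 0.479). It did not pass in any of the 3, but with median centring its E60 minus E50 value was 1.65 (adjusted p = 0.0384).

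No other component of the IkB kinase complex was analysed here. TBK1 and TANK, a kinase and an adaptor related to it, were the remaining genes of that list, and neither passed. With median centring both were called from E50 to E60, TBK1 at 1.46 (adjusted p = 0.00439) and TANK at 1.59 (adjusted p = 0.0130). Among the inhibitors, NFKBIB, which encodes IkB-beta, had changes of 0.91 (adjusted p = 0.405) by E60 and 1.07 (adjusted p = 0.329) by E70 with its brighter probe set. The dimmer NFKBIB probe set, below background on all 9 arrays, gives no direction. NKIRAS1, a small GTPase that binds IkB proteins, fell by 0.98 from E50 to E70 (adjusted p = 0.0363) with its brighter probe set. That call was lost after median centring and without any array but E50 replicates 2 and 3 (up to adjusted p = 0.111). The dimmer NKIRAS1 probe set was not called (-0.46, adjusted p = 0.253). NFKB1, the p105 and p50 subunit, exceeded background on 1 of 9 arrays, and its log2 change of -3.97 from E50 to E60 did not pass (adjusted p = 0.0678).

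Most pathway calls lay among the ubiquitin and NEDD8 enzymes. Between E50 and E60, 3 of 15 were called higher and 4 lower, beside 7.20% and 13.7% of all genes. Between E50 and E70, 3 were called higher and 2 lower, beside 7.33% and 14.3%. UBE2V2, a partner of the ubiquitin-conjugating enzyme UBE2N, ranged from 529 to 851 at E50, 2169 to 2401 at E60, and then 1474 to 2191 at E70, a rise of 3.32-fold by E60 (adjusted p = 0.00722) and 2.56-fold by E70 (adjusted p = 0.0141). UBE2N, with which TRAF6 builds K63-linked chains, fell by 0.78 by E60 (adjusted p = 0.0330) and 0.83 by E70 (adjusted p = 0.0257), but centring left its change at -0.0046 and -0.12. CUL1, the scaffold of the ligase that marks IkB-alpha, rose 1.77-fold by E60 (adjusted p = 0.0345) and 2.16-fold by E70 (adjusted p = 0.0118). NEDD8, the ubiquitin-like protein that activates that ligase, fell 2.49-fold by E60 (adjusted p = 0.0109) and 2.45-fold by E70 (adjusted p = 0.0102). SHARPIN, a subunit of the complex that attaches linear ubiquitin to NEMO, was below background on the 3 E50 arrays and above it on the 6 later ones, and was called at E60 (adjusted p = 0.0327) and E70 (adjusted p = 0.0333). On 2 of the 3 E50 arrays the background (248 and 379) exceeded the later SHARPIN means of 225 and 219. SHARPIN is therefore not read as a rise, and no fold is given. SQSTM1, a scaffold that binds TRAF6, fell by 1.17 on the log2 scale by E60 (adjusted p = 0.0369). After median centring UBE2V2 and CUL1 stayed called as rises from E50 to E60, and SHARPIN stayed called. UBE2N, NEDD8 and SQSTM1 were then not called. With quantile normalization the E60 call of CUL1 was lost (0.63, adjusted p = 0.0970). Without any single array of E60 or E70 the E60 calls of UBE2N, CUL1, SHARPIN and SQSTM1 were lost (adjusted p = 0.0505 to 0.117), as were the E70 calls of UBE2N and SHARPIN, and the SQSTM1 call was also lost without E50 replicate 2 or 3. The E60 call of NEDD8 was lost without E60 replicate 1 (0.0515) and the E70 call of UBE2V2 without E70 replicate 3 (0.0568).

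**Figure D3:**
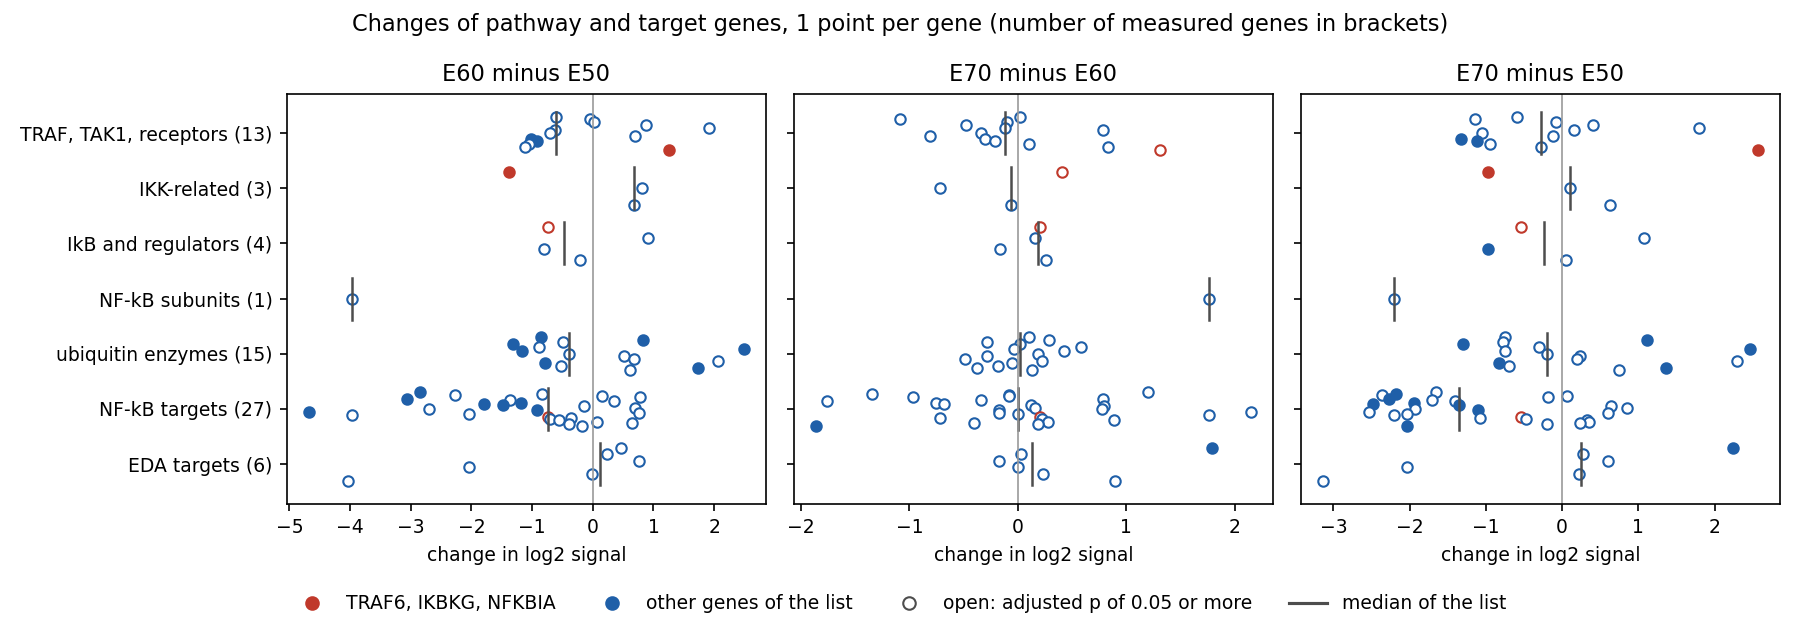
Change in log2 signal of each measured pathway and target gene in the 3 comparisons, by its brightest probe set, with members in red, the list median as a line and filled points for an adjusted p under 0.05. The NF-kB target genes called from E50 all lie below 0, and from E60 to E70 the only filled points are VCAM1 and BMP4.

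Known NF-kB target genes were measured for 27 of 39 listed, 26 of them other than NFKBIA. NFKB1 and TNIP1 were also pathway genes. Between E50 and E60, 7 of the 26 fell and 0 rose, beside 13.7% and 7.20% of all genes, with a median of -0.77 against -0.18 over all genes. Between E50 and E70, 7 fell and 0 rose, beside 14.3% and 7.33% of all genes, with a median of -1.38 against -0.11. Both counts of 7 include CSF2, which lay below background on every array and is not read as a fall. The first count also includes LTA, which was above background on the E50 arrays but below it on those of E60. From E60 to E70 only VCAM1 was called, as lower, beside 0.606% of all genes that fell. A dimmer probe set of CFLAR, an inhibitor of cell death, differed by 2.44 between E60 and E50 (adjusted p = 0.0253), whereas its brighter one was not called. After median centring 4 fell and 1 rose by E60 and 5 fell and 0 rose by E70, with medians of 0.01 and -0.67. With dim probe sets left out, 17 of the 26 genes remained. Of these 7 fell and 0 rose by E60, with a median of -0.385 against 0.20 over all probe sets kept. By E70 6 fell and 0 rose, with a median of -1.08 against 0.27.

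ICAM1, an adhesion molecule that leukocytes bind, read 869.8, 739 and 644 at E50, 236 to 243 on 2 E60 arrays and 170.4 on the other, and 121, 149.9 and 132 at E70. The 3 stages did not overlap, and the signal fell 3.48-fold by E60 (adjusted p = 0.00489) and 5.57-fold by E70 (adjusted p = 0.00120). VCAM1, another such adhesion molecule, ranged from 2242 to 2796 at E50, 1872 to 2397 at E60, and then 508 to 713 at E70. It fell between E60 and E70, by 3.63-fold (adjusted p = 0.0279), though this call was lost after median centring (adjusted p = 0.0614) and without any single array of E60 or E70 (0.0770 to 0.159). CCL2, a chemokine that attracts monocytes, ranged from 644 to 1168 at E50, 518 to 539 at E60, and then 193 to 235 at E70, and was 4.55-fold lower at E70 than at E50 (adjusted p = 0.00328).

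GADD45B, a stress-response gene, ranged from 413 to 686 at E50, 222 to 278 at E60, and then 131 to 152 at E70, a fall of 2.28-fold by E60 (adjusted p = 0.0208) and 3.86-fold by E70 (adjusted p = 0.00350). Its E60 call was lost after either other scaling and without any single E60 array (adjusted p = 0.0513 to 0.0817). IER3, an early-response gene, ranged from 487 to 523, 149 to 203 and 184 to 221 at the 3 stages in order, a fall of 2.78-fold by E60 (adjusted p = 0.00667) and 2.55-fold by E70 (adjusted p = 0.00745). Both IER3 calls were lost with median centring (-0.70, adjusted p = 0.0815, and -0.64, adjusted p = 0.0995). CSF2, a colony-stimulating factor, was called lower at E60 and E70 but lay below background on all 9 arrays, so no fold is given. From E50 to E70 the falls of ICAM1, VCAM1, CCL2 and GADD45B passed in all 18 alternative fits, those without any single array included, and the fall of IER3 in 16 of 18. For GADD45B these fits used its brighter probe set. The dimmer GADD45B probe set was not called, with changes of 0.31 by E60 (adjusted p = 0.841) and -0.64 by E70 (adjusted p = 0.664).

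The summed signals of markers of other cells were also lower at the later stages, and the part of these cells in the result was not tested. Of 20 listed macrophage and leukocyte markers 14 were measured, and their summed signal over the E50 arrays was 5894 to 7574, against 2508 to 2624 over the E60 and 1167 to 1330 over the E70 arrays. Between E50 and E70, 7 of the 14 fell, among them AIF1, C1QC and TYROBP, beside 14.3% of all genes. C1QA was called higher, beside 7.33% of all genes that rose. It was below background on the 3 E50 arrays and its E70 geometric mean of 87.6 did not exceed the E50 background of 194. C1QA is therefore not read as a rise. PTPRC, the general leukocyte marker, was below background on all 9 arrays, and CD14 exceeded it at E50 alone, on 2 arrays. The 10 measured of 12 endothelial markers summed to 4507 to 4771, 3672 to 4146 and 2266 to 2665 at the 3 stages in order. By E60 1 of the 10 was called lower and by E70 2 were, beside 13.7% and 14.3% of all genes, and 0 were called higher. PECAM1 and CDH5, above background on all arrays, were called in neither comparison. Their changes were 0.17 and 0.26 by E60 and -0.70 and -0.70 by E70. The 16 measured of 21 skeletal muscle markers summed to 8179 to 10908, 2648 to 2871 and 1043 to 1112. From E50 to E70, 11 of them were called lower, beside 14.3% of all genes. MYH2 was among the 11 but lay below background on all 9 arrays.

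**Figure D4:**
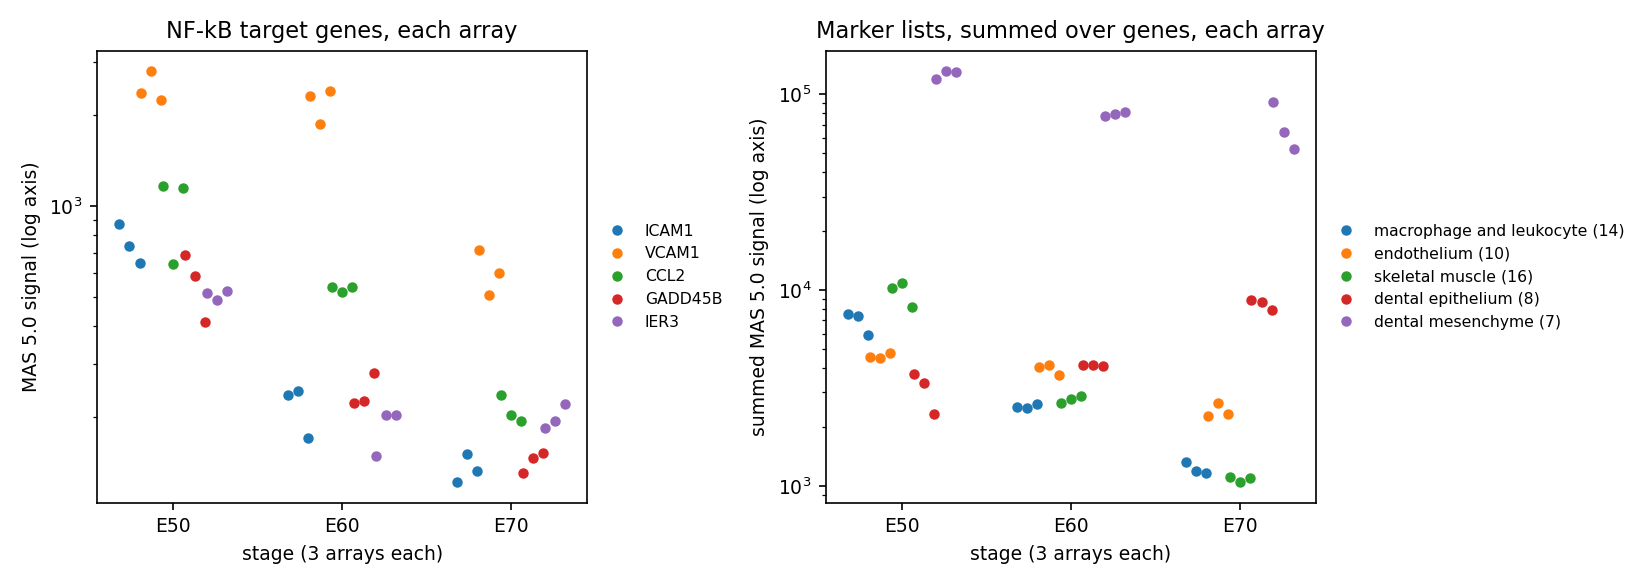
Left, MAS 5.0 signal (log axis) of 5 NF-kB target genes on each array. Right, summed signal (log axis) of the measured markers of 5 cell types on each array, the number of genes in brackets. The arrays of ICAM1, CCL2 and GADD45B lie lower at each later stage without overlap. From E60 to E70 limma called only VCAM1 among the 5, and it did not call CCL2 from E50 to E60 (adjusted p = 0.0805). The macrophage and leukocyte, endothelial and muscle sums are lowest at E70, where the dental epithelium sum is highest.

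The tissue label was checked with markers of tooth tissue. The 8 measured of 21 dental epithelium markers summed to 2325 to 3740 at E50, 4081 to 4168 at E60, and then 7960 to 8869 at E70, highest at the stage where TRAF6 exceeded background. Of the 8, none was called from E50 to E60, beside 7.20% of all genes that rose and 13.7% that fell. The epithelial genes CDH1, EPCAM and KRT18, 3 of the 8, were called higher at E70 than at E50, beside 7.33% of all genes. KRT18 was below background on the 3 E50 arrays, and its E70 geometric mean of 151 did not exceed the E50 background of 194. It is therefore not read as a rise. The enamel genes of the list were mostly dim. AMELX exceeded background on 1, 2 and 3 arrays at the 3 stages in order, AMBN on 1, 1 and 3, MMP20 on 1, 2 and 2, and ENAM on 1, 1 and 1. None of these enamel genes was called in any comparison. The 7 measured of 18 dental mesenchyme markers summed to 119110 to 131130, 77711 to 81170 and 52885 to 91834 at the 3 stages in order, mostly VIM, which fell by 1.00 from E50 to E60 (adjusted p = 0.0418). Of the 7, 1 was called higher and 3 lower by E60, beside 7.20% and 13.7% of all genes. By E70 1 was called higher and 3 lower, beside 7.33% and 14.3%. POSTN went the other way from VIM, with a rise of 2.05 by E60 (adjusted p = 0.00236) and a fall of 2.11 from E60 to E70 (0.0127). MSX1, a transcription factor of dental mesenchyme, was above background on all arrays. It fell by 1.03 by E60 (0.0295) and 1.56 by E70 (0.00676), and IGFBP5 fell by 2.21 by E60 (0.00146). Whether the epithelial share bears on TRAF6 was not tested.

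Of 16 genes known to respond to EDA in the tooth placode, 6 were measured. Between E50 and E60 limma called 0 of 6 (1 at an unadjusted p under 0.05), beside 7.20% of all genes that rose and 13.7% that fell. From E50 to E70 it called 1, beside 7.33% that rose and 14.3% that fell. From E60 to E70 it called the same 1, beside 0.118% that rose and 0.606% that fell. This was BMP4, a signalling protein that is also a mesenchyme marker. BMP4 ranged from 749 to 821 at E50, 882 to 1292 at E60, and then 3120 to 4749 at E70, a rise of 3.45-fold from E60 to E70 (adjusted p = 0.0447) and 4.75-fold from E50 to E70 (adjusted p = 0.00196). The first of these calls was lost after either other scaling and without any array but E50 replicate 3 (adjusted p = 0.0557 to 0.208). PTHLH, FST, LTB, MMP9 and WNT10B did not pass in any comparison.

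Genes whose log2 signal followed each member most closely over the 9 arrays were listed by Pearson's r among 7613 probe sets. All points share the 3 stages, and for each member many probe sets had a similar pattern. The brighter TRAF6 probe set was most like EGFR (r = 0.993), the receptor of epidermal growth factor, TMEM221 (0.987) and SERPINI1 (0.974), and 86 probe sets exceeded 0.9. These values rest on a TRAF6 signal under background on 6 of the 9 arrays. EGFR was above background throughout, with geometric means of 603, 988 and 1683 at the 3 stages in order. The brighter IKBKG probe set was most like UBE2G2 (0.974), NSF (0.973) and CAPN10 (0.970), with 141 above 0.9. NFKBIA was most like FAM104A (0.980), VPS18 (0.980) and ENSA (0.967), with 68 above 0.9.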

How the data were processed

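Molar germs had been profiled on Affymetrix porcine arrays, 3 for each of 3 stages, and all 9 arrays entered, grouped by their labels. The authors computed the deposited intensity of each probe set with MAS 5.0, scaled per array, so a change of the same fold in all genes is removed. The mean signal without the top and bottom 2% was 500 on each array. The array medians stayed unequal, with 261 as the lowest of E50 and 184 as the highest of the later stages. A shift of the median was therefore left in the deposited values. Symbols came from the platform annotation: 10069 of 23999 probe sets had 1 symbol, 198 several and 13732 none. Control probe sets (124) were set aside. A floor of 1 was applied before the log2 transform. Where a fold is given as at least, the mean of the bright stage was set against the background of the dim one. For lists, a gene was its brightest probe set.

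One limma 3.58.1 fit (R 4.3.3, prior degrees of freedom 1.47) covered all arrays, with Benjamini-Hochberg adjustment over 23999 probe sets and calls at adjusted p under 0.05. Exact tests used SciPy 1.17.1. Members and lists were chosen with earlier results of these data known. Named were up to 6 called genes per list by adjusted p, the measured core pathway genes and the 3 genes most like each member. Marker genes were named after their values were seen. Deviations of same-numbered arrays correlated at -0.021 to 0.026, so the numbers were not taken as pairs. Precision is limited by 3 arrays per stage and by dim signals.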

Additional observations from a re-analysis of the deposited data

How the results depend on the processing

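Alternatives changed the scaling, the floor, the filter on dim probe sets, the arrays in the fit, the weights, the prior, the block and the probe set. The brighter TRAF6 probe set's change from E50 to E60 (1.25) became 0.72 with a floor of 16 (adjusted p = 0.103) and 0.44 with 32 added before log2 (0.186), and 2.03 with median centring (0.00430) and 1.90 with quantile normalization (0.0258). At 1.25 it was not called with the arrays of the 2 stages alone (0.0587), with 1 weight per stage (0.163) or with an intensity trend in the prior (0.303). The other TRAF6 probe set gave -2.46, and 0.33 from E50 to E70. From E60 to E70 TRAF6, at 1.31, was called with 1 weight per stage (0.0300). Its difference between steps turned to -0.78 with median centring, -0.50 with quantile normalization, and -0.19 to 0.26 without 1 array, and the dimmer probe set's change from E50 to E70 turned to -0.055 without E50 replicate 1 (-0.055 to 0.65 without 1 array). The brighter IKBKG probe set's changes of -1.38 and -0.97 became -0.60 and -0.26 with median centring and -0.81 and -0.53 with quantile normalization. Neither was called with the arrays of the 2 stages alone (-1.38, 0.0528, and -0.97, 0.124) or 1 weight per stage (0.0778 and 0.181), nor the second with an intensity trend (0.0745). The other probe set gave 2.27 and 2.78. NFKBIA turned to 0.032 and 0.18 with median centring, and its -0.74 from E50 to E60 was called with dim probe sets left out (0.0314) and with an intensity trend (0.0293). With the replicate block, TRAF6 at 1.25 (0.0735) and IKBKG at -0.97 (0.0856) were not called. The block called 2811, 9 and 2944 probe sets between E50 and E60, E60 and E70, and E50 and E70, against 4436, 101 and 4510 without it, 2 and 5 pathway genes and 0 target genes from E60 to E70. For contrasts between stages, the block turned no other call of NFKBIA or of the brighter TRAF6 and IKBKG probe sets. Leaving out 1 array gave 1.09 to 1.38 for TRAF6 and -1.53 to -1.21 for IKBKG from E50 to E60, the latter lost without E60 replicate 1 or 2, and -1.12 to -0.80 for IKBKG from E50 to E70, lost without E50 replicate 2 or any E60 or E70 array. For NFKBIA it gave -0.88 to -0.64, called without E50 replicate 1 (0.0358). In the order of the comparisons it gave 1758 to 5975, 30 to 149 and 2252 to 6116 probe sets, for pathway genes 1 to 12 from E50 to E60 and 2 to 14 from E50 to E70, and for target genes 4 to 9 from E50 to E60 and 0 to 2 from E60 to E70. The 2 stages alone called 2087, 420 and 1877 probe sets, 2 and 0 pathway genes, and 3 and 2 target genes in the first comparisons. Weights called 1498, 883 and 1724 probe sets, 1 and 1 pathway genes and 2, 3 and 4 target genes. The intensity trend called 366 probe sets from E60 to E70, 16 and 14 pathway genes and 2 target genes from E60 to E70. Median centring called 67 probe sets and 0 target genes from E60 to E70, and leaving out dim probe sets 172 there and 13 pathway genes from E50 to E70. The causes were not tested. Of the calls from E50 to E60, 1884 were up and 2552 down as deposited, 4679 and 911 with median centring, which moved the median of all probe sets from -0.18 to 0.60, and 1793 and 1780 with quantile normalization. From E50 to E70 the split was 1959 and 2551 as deposited and 4722 and 1138 with median centring.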
